A study of Homo sapiens with 12 samples.

Results

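UNC5B, ARMCX2, CLGN, SPNS3 and SNAI1 are 5 of the 58735 genes in an RNA sequencing table from SEM cells. They were chosen by name because their RNA was strongly higher with cytarabine (AraC) in 1 or both genotypes. The choice was made outside the stress gene lists used for it, which need not hold every known stress gene. SEM is an established line of B cell precursor acute lymphoblastic leukaemia. The 12 libraries form 4 groups of 3: IKZF1 knockout cells given 1 µM AraC for 16 hours (KO AraC), untreated knockout cells (KO untreated), wild-type cells given the same AraC treatment (WT AraC) and untreated wild-type cells (WT untreated). Its title concerns deletions of IKZF1, the gene of the lymphoid transcription factor Ikaros, and resistance to cytarabine, a nucleoside analogue that blocks DNA synthesis. One knockout genotype is labelled, with no line or clone named, so differences between lines cannot be told apart from the genotype. The labels number the replicates without saying that they were separate cultures, so a p-value here rests on variation among libraries that may be technical.

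The genes belong to unrelated families. UNC5B is a cell surface receptor for the guidance protein netrin-1, and is known as a dependence receptor that can signal for cell death when its ligand is missing. ARMCX2 is one of a cluster of armadillo repeat genes on the X chromosome, and its relative ARMCX3 is known at the mitochondrial outer membrane. CLGN encodes calmegin, an endoplasmic reticulum chaperone related to calnexin that is needed for sperm function in mice. SPNS3 is a putative sphingolipid transporter of the spinster family, whose member SPNS2 exports sphingosine-1-phosphate from cells. SNAI1 encodes Snail, a zinc finger repressor that binds E-box sequences and is best known for silencing the E-cadherin gene CDH1 when epithelial cells become migratory.

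By the table's coordinates (GRCh38), UNC5B (ENSG00000107731) lies on chromosome 10 from 71212570 to 71302864 on the plus strand, and ARMCX2 (ENSG00000184867) on chromosome X from 101655281 to 101659891 on the minus strand. CLGN (ENSG00000153132) lies on chromosome 4 from 140388455 to 140427968 on the minus strand. SPNS3 (ENSG00000182557) lies on chromosome 17 from 4433688 to 4488208, and SNAI1 (ENSG00000124216) on chromosome 20 from 49982999 to 49988886, both on the plus strand. All are protein-coding, and no chromosome holds more than 1 of them. Their promoters were looked up in a RefSeq table of the bases from 250 before to 50 after each gene's start (build GRCh38.p14), and 2 of the 5 genes matched. Both matched promoters are shown. They belong to genes that were higher with AraC in both genotypes, as were UNC5B and SPNS3, whose promoters did not match. Capitals mark a CCAAT box (on the opposite strand, read as ATTGG) and the core of the unfolded protein response element, TGACGTGG.
ARMCX2, chrX:101659801-101660100, minus strand: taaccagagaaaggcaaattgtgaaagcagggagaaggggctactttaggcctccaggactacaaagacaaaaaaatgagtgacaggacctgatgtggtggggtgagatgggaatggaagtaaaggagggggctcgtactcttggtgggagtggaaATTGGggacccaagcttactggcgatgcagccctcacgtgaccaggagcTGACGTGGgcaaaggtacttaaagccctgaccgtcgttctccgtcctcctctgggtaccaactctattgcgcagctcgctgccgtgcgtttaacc
CLGN, chr4:140427599-140427898, minus strand: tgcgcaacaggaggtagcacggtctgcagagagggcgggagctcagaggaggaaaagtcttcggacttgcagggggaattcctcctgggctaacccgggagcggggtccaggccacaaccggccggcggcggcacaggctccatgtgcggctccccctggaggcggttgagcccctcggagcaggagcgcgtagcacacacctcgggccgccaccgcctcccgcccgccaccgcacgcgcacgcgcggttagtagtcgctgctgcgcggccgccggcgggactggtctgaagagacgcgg

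Both windows follow RefSeq's gene starts, which differ from the ends in the authors' table: the table's CLGN begins upstream of the window shown, and its ARMCX2 within it. By the authors' start the whole CLGN window lies inside the gene, so what it holds or lacks concerns the RefSeq promoter only. The promoters differ in composition. That of CLGN is 71% G and C with 34 CpG dinucleotides, more than in 84.4% of the 35116 promoters of the table, and that of ARMCX2 is 53.7% G and C with 11 CpG, more than in 45.3%. The search covered both strands. In ARMCX2 the letters TGACGTGG begin 45 bases before the RefSeq start, a match that 0.729% of all promoters hold. The start in the authors' table falls inside these letters. The match includes TGACG, a core of the cAMP response element, held by 24.6%. The CCAAT box of ARMCX2 lies 94 bases before the RefSeq start, and 34.6% of promoters hold such a box. In CLGN only the GC box GGGCGG matched, at 2 places, and 45% of promoters hold it. Neither window held the composite element of ATF4 and C/EBP factors, TGATGNAAN (3.61% of promoters), the full cAMP response element TGACGTCA (1.85%), the endoplasmic reticulum stress element (0.0769%), the AP-1 element TGANTCA (7.71%), the Snail E-box CAGGTG (20.6%) or the TATA box TATAAA (11.5%). A match is a string of letters and not a shown binding site.

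Depth was 16342979 to 22733932 reads assigned to genes per library; WT AraC replicate 1 was the deepest and the others had at most 16913784. Levels are FPKM, fragments scaled by the authors to gene length and by a factor per library that did not follow the read totals alone. All 9 markers of SEM as a precursor B cell line (PAX5 and EBF1 among them) reached 1 FPKM in every group. Their summed level was 619.8 to 633.8 in KO AraC, 870.9 to 874.7 in KO untreated, 421.7 to 450.7 in WT AraC and 620.8 to 641 FPKM in WT untreated libraries. This sum was higher in KO within each treatment and lower with AraC in each genotype, without overlap. Its part in the results was not tested. T cell and epithelial markers were below 0.1 FPKM. Of 4 myeloid markers only LYZ passed 1 FPKM, while CD14, ITGAM and MPO stayed below it. The myeloid sum was 1.89 to 3.04 in KO AraC, 0.262 to 0.809 in KO untreated, 4.15 to 5.09 in WT AraC and 0.919 to 1.95 FPKM in WT untreated libraries; its part in the results was not tested. Of 4 fibroblast markers only COL1A1 passed 1 FPKM, with DCN at 0, and of 4 endothelial markers only PECAM1, with CDH5 at 0. The endothelial sum was 1.45 to 1.61 in KO AraC, 1.08 to 1.32 in KO untreated, 2.27 to 2.49 in WT AraC and 2.00 to 2.37 FPKM in WT untreated libraries, lower in KO without overlap, and its part in the results was not tested. The fibroblast sum was 2.08 to 2.32 in KO AraC, 0.959 to 1.34 in KO untreated, 0.735 to 0.947 in WT AraC and 0.284 to 0.407 FPKM in WT untreated libraries, and its part was not tested either. The IKZF1 gene total was 14.2, 14.3 and 15 in KO AraC, 20.5, 21.5 and 21.3 in KO untreated, 14.2, 14.8 and 15.3 in WT AraC and 22.1, 22.6 and 22.4 FPKM in WT untreated libraries. The groups are ordered by treatment and not by genotype, so the gene total gives no check of the knockout. Between KO AraC replicate 3 and its fellow replicates the chi-square per degree of freedom was 7.18 and 8.97, against 2.29 to 4.6 for the other pairs of replicates.

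UNC5B, ARMCX2, CLGN and SPNS3 were higher with AraC in both genotypes, and SNAI1 mainly in WT cells. These rises chose the genes, so the AraC values are a description and carry no test. With AraC every library stood above every untreated library for 4 of 5 genes in KO and 5 of 5 in WT; 23.2% and 29.1% of all 13300 tested genes did so too, and 44.4% and 49.7% of them passed the test of AraC in either direction. Nothing is read from this count, since the choice of genes fixes it.

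**Figure D1:**
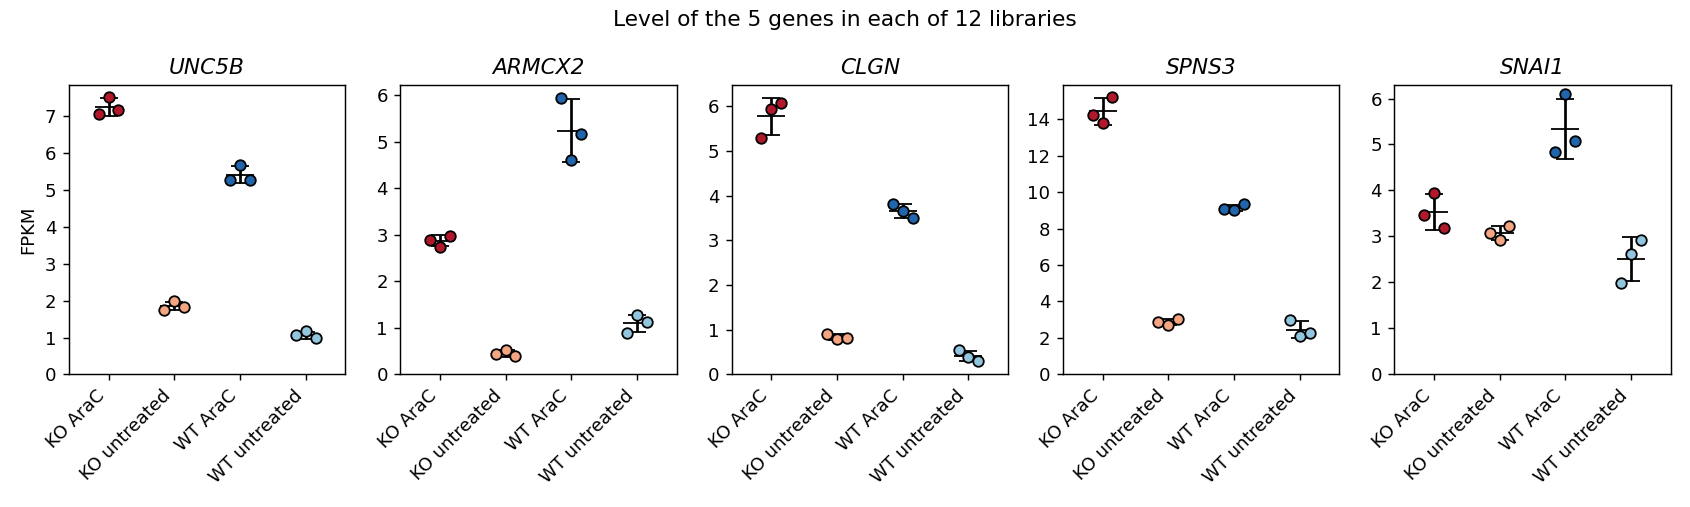
Level in FPKM (y axis) of the 5 genes in each group (x axis). Points are single libraries, and the bars give the mean and SD of 3; SNAI1 is the gene whose KO AraC and KO untreated points overlap.

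UNC5B, the netrin receptor, had 7.06, 7.51 and 7.16 FPKM in KO AraC libraries, against 1.75, 1.98 and 1.83 in KO untreated libraries. In WT AraC libraries it had 5.28, 5.68 and 5.27 FPKM, against 1.05, 1.17 and 0.979 in WT untreated libraries. The means were 3.91 times higher with AraC in KO (7.24 ± 0.238 and 1.85 ± 0.115 FPKM, SD, n = 3 each) and 5.07 times in WT (5.41 ± 0.237 and 1.07 ± 0.0938), with no overlap between groups. The order over groups was KO AraC, WT AraC, KO untreated and WT untreated, and no neighbours in it overlapped. Behind these values stood 813 to 882 reads per KO AraC library, 189 to 208 per KO untreated, 635 to 880 per WT AraC and 105 to 126 per WT untreated library.

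ARMCX2 had 2.89, 2.74 and 2.99 FPKM in KO AraC libraries, against 0.441, 0.525 and 0.388 in KO untreated libraries. In WT AraC libraries it had 5.95, 4.61 and 5.17 FPKM, against 0.897, 1.27 and 1.12 in WT untreated libraries. Its mean was 6.37 times higher with AraC in KO (2.87 ± 0.122 and 0.451 ± 0.0692 FPKM, SD, n = 3 each) and 4.78 times in WT (5.24 ± 0.673 and 1.10 ± 0.187). WT AraC was the highest group here, followed by KO AraC, WT untreated and KO untreated, again without overlap. The KO untreated libraries held only 22 to 29 reads of the gene, against 169 to 181 in KO AraC libraries.

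CLGN, the calnexin relative, had 5.3, 5.94 and 6.07 FPKM in KO AraC libraries, against 0.91, 0.789 and 0.809 in KO untreated libraries. In WT AraC libraries it had 3.82, 3.66 and 3.5 FPKM, against 0.536, 0.385 and 0.306 in WT untreated libraries. This was the largest ratio of means among the 5 genes in both genotypes, 6.9 in KO (5.77 ± 0.411 and 0.836 ± 0.0649 FPKM, SD, n = 3 each) and 8.96 in WT (3.66 ± 0.159 and 0.409 ± 0.117). From high to low the groups ran KO AraC, WT AraC, KO untreated and WT untreated, with no overlap. The WT ratio rests on 15 to 26 reads per untreated library, against 193 to 291 per WT AraC library. Without AraC the gene was below 1 FPKM in all 6 libraries, so it passed the filter for testing, at least 1 FPKM in at least 3 libraries, only through the AraC groups. In WT untreated libraries its mean lay above that of only 1.11% of tested genes, and in KO AraC libraries above that of 46.8%.

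SPNS3, the putative transporter, had 14.2, 13.8 and 15.2 FPKM in KO AraC libraries, against 2.85, 2.69 and 3.04 in KO untreated libraries. In WT AraC libraries it had 9.05, 9.04 and 9.32 FPKM, against 2.98, 2.12 and 2.26 in WT untreated libraries. The ratio of means was 5.04 in KO (14.4 ± 0.720 and 2.86 ± 0.177 FPKM, SD, n = 3 each) and 3.73 in WT (9.14 ± 0.160 and 2.45 ± 0.459). It had the highest mean of the 5 genes in both AraC groups. The AraC groups stood apart from each other, while the untreated ranges of the genotypes overlapped.

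SNAI1, which encodes Snail, had 3.47, 3.94 and 3.18 FPKM in KO AraC libraries, against 3.08, 2.93 and 3.23 in KO untreated libraries. These ranges overlap, and the ratio of means was 1.15 (3.53 ± 0.384 and 3.08 ± 0.149 FPKM, SD, n = 3 each). In WT AraC libraries it had 4.84, 6.09 and 5.08 FPKM, against 1.99, 2.63 and 2.91 in WT untreated libraries. Here the ranges do not overlap, and the ratio was 2.13 (5.34 ± 0.662 and 2.51 ± 0.475). WT AraC was the highest group and WT untreated the lowest, with the KO groups between them and the lowest KO untreated library just above the highest WT untreated one. CDH1, the E-cadherin gene that Snail represses in epithelia, was listed at 0 in all 12 libraries.

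On the log2(FPKM + 0.5) scale, which understates the change of low genes, AraC minus untreated in KO and in WT was 2.23 and 2.20 for CLGN, 2.15 and 1.72 for SPNS3, 1.83 and 1.85 for ARMCX2, 1.72 and 1.92 for UNC5B, and 0.17 and 0.96 for SNAI1. Ranked by this difference among 13300 tested genes, CLGN stood at 9 in both genotypes. The others stood in KO and WT at 12 and 32 for SPNS3, 25 and 21 for ARMCX2, 33 and 16 for UNC5B, and 3674 and 267 for SNAI1. Limma-voom on the reads recovered from the FPKM drops both the added 0.5 FPKM and the deposited scaling between libraries. There the difference was 2.90 in KO and 3.33 in WT for CLGN and 2.78 and 2.43 for ARMCX2. The median of all genes also moved there, to 0.094 in KO and 0.14 in WT. SNAI1 in KO stood at 0.31 under both TPM and limma-voom, and between 0.096 and 0.23 with 1 library left out. The AraC difference in KO minus that in WT was 0.43 for SPNS3, -0.20 for UNC5B and -0.79 for SNAI1, values built from the contrasts that chose the genes and given with no test. For CLGN (0.027) and ARMCX2 (-0.018) even the sign depends on the pseudocount, since at 0.1 they were -0.26 and 0.28. UNC5B kept its sign but ranged from -0.10 with a pseudocount of 1 to -0.40 with limma-voom.

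The difference between genotypes averaged over treatment is orthogonal to both AraC contrasts, and it could be tested. The genes were chosen with earlier results of these data known, so its p-values may not be free of that choice. On this average UNC5B, CLGN and SPNS3 were higher in KO cells and ARMCX2 was lower, although the untreated ranges of SPNS3 overlapped between genotypes. KO minus WT was 0.49 for UNC5B (95% interval 0.39 to 0.59, limma with Benjamini-Hochberg adjustment over 13300 genes, adjusted p = 8.5e-06). For CLGN it was 0.58 (0.42 to 0.73, limma adjusted p = 6.9e-05) and for SPNS3 0.41 (0.27 to 0.55, limma adjusted p = 0.00039). ARMCX2 stood at -0.75 (-0.93 to -0.57, limma adjusted p = 2.2e-05), and was lower in KO in both treatments. SNAI1 did not pass, at -0.14 (-0.32 to 0.05, limma adjusted p = 0.23). Its average joins a higher KO level without AraC (1.23 times) and a lower one with AraC (0.661 times). Without WT untreated replicate 1, the lowest of its group for SNAI1, the difference was -0.20 (limma adjusted p = 0.047). With unequal groups the contrast is no longer orthogonal to the WT AraC contrast, so nothing is read from that p. CLGN, and ARMCX2 in KO cells, were below 1 FPKM in every untreated library, so the AraC libraries carried them past the filter; with no filter both calls held (limma adjusted p = 0.00027 and 0.00011). Thus 4 of 5 genes passed, 3 of them higher and 1 lower in KO, where 40.4% of all tested genes passed, 21.2% higher and 19.2% lower.

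**Figure D2:**
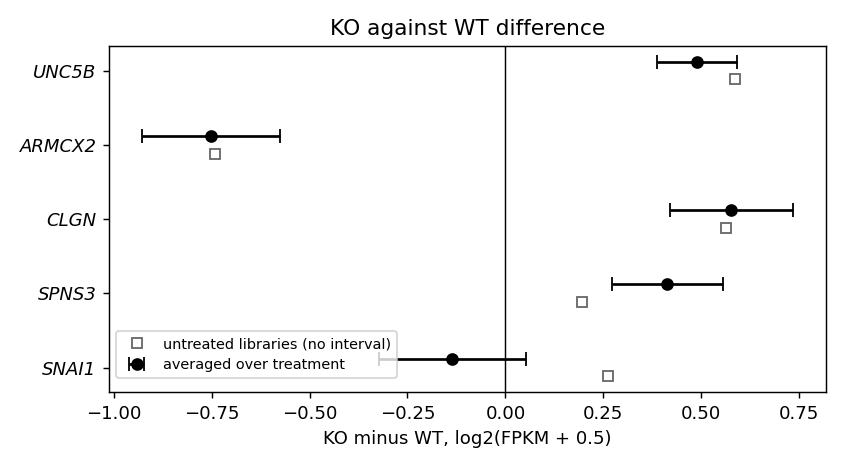
KO minus WT in log2(FPKM + 0.5) (x axis) for each gene, from limma. Black circles with 95% intervals average both treatments, and open squares, with no interval, are the untreated libraries; SNAI1 is the gene whose interval includes 0.

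The untreated libraries alone were part of the choice of genes, so their KO against WT differences are a description and carry no test. UNC5B had 1.74 times the WT level in untreated KO cells (log2 difference 0.59), CLGN 2.05 times (0.56) and ARMCX2 0.412 times (-0.74), each without overlap between genotypes. From recovered reads with limma-voom the log2 difference was 1.03 for CLGN and -1.28 for ARMCX2, and for CLGN it was 0.90 with a pseudocount of 0.1. SNAI1 had 1.23 times the WT level (0.26), with ranges that nearly met. SPNS3 had 1.17 times (0.20), with overlapping ranges; without WT untreated replicate 1, the highest of its group, its difference was 0.32. With AraC the mean in KO was 1.58 times that in WT for both SPNS3 and CLGN, and 1.34 times for UNC5B. It was 0.661 times for SNAI1 and 0.548 times for ARMCX2. The ranges of the genotypes did not overlap for any of the 5 genes, and these values are a description. The share of all tested genes without overlap between genotypes was not counted, with or without AraC, so nothing is read from it.

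**Figure D3:**
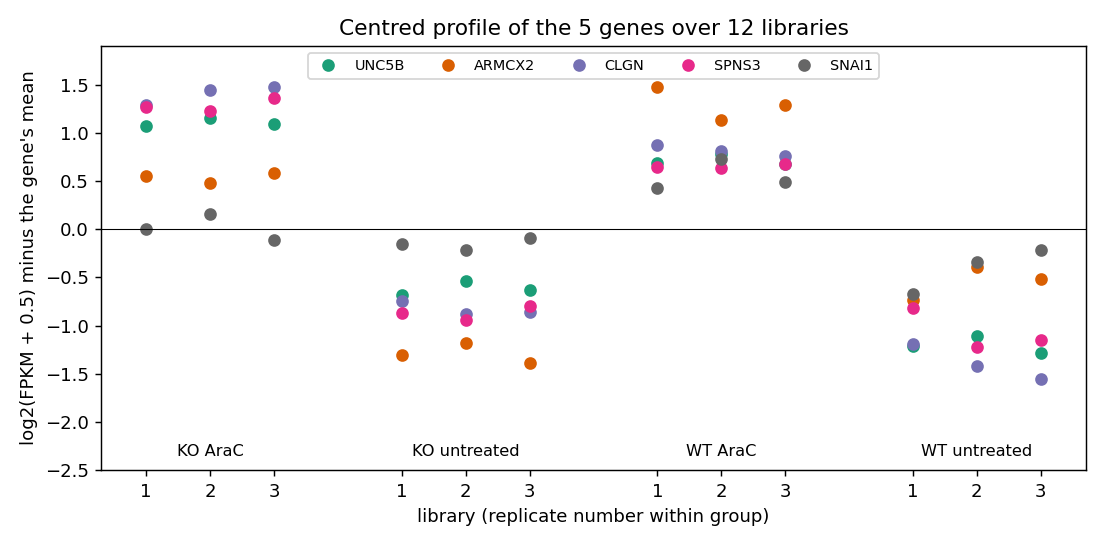
Centred log2(FPKM + 0.5) of each gene (y axis) in the 3 libraries of each group (x axis). UNC5B, CLGN and SPNS3 lie close together; ARMCX2 is higher in WT than in KO in both treatments, and SNAI1 stays near its mean in KO.

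Likeness of profiles was measured as the root mean square difference of centred log2(FPKM + 0.5) over the 12 libraries, among 10434 tested protein-coding genes. A large AraC difference in both genotypes weighs most in this measure, and the genes were chosen for it, so nearness to each other and to other strongly higher genes follows in large part from the choice. UNC5B, CLGN and SPNS3 were near each other, at 0.207 between CLGN and SPNS3, 0.214 between UNC5B and SPNS3 and 0.235 between UNC5B and CLGN. ARMCX2 stood 0.624 to 0.71 from these 3 and SNAI1 0.728 to 0.944. The gene nearest to UNC5B was DDIT3, which encodes the stress factor CHOP (0.182), and its 5 nearest also held SPNS3, the glycine transporter SLC6A9 (0.233) and CLGN. The nearest to CLGN was ATF5, a stress-induced transcription factor (0.172), followed by SPNS3, UNC5B and TREML2 (0.274). Among the 5 genes nearest to SPNS3 were CLGN, UNC5B, TM6SF1 (0.228) and SLC6A9 (0.233).

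ARMCX2 had the G1/S cyclins CCNE1 (0.231) and CCNE2 (0.277), PCBP4 (0.254), the cystine transporter subunit SLC7A11 (0.262) and JDP2 (0.28) nearest to it. These genes were higher with AraC too, and their KO minus WT values averaged over treatment ran from -0.94 for PCBP4 to -0.36 for JDP2. Nearest to SNAI1 were ANKRD42 (0.145), AUNIP (0.157), CEP295 (0.16), THAP6 (0.162) and SLC15A3 (0.166), whose AraC difference was 0.12 to 0.40 in KO and 0.67 to 0.82 in WT. The points share libraries and depth, and genes with small changes are near each other on this measure by size alone. With a pseudocount of 0.1 only 2 or 3 of each gene's 5 nearest were the same, and under TPM also 2 or 3. For SNAI1, 1 of the 5 was shared without WT untreated replicate 1, 2 without KO untreated replicate 3 or KO AraC replicate 3, and 3 without WT AraC replicate 2 or KO AraC replicate 1. For the other genes 3 to 5 were shared with 1 library left out: 3 for UNC5B without WT untreated replicate 1 or 3 or WT AraC replicate 3, for ARMCX2 without WT untreated replicate 2 and for SPNS3 without WT untreated replicate 1.

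The relatives of these genes were taken from 5 lists, in which the closest family and the genes called in both genotypes are named, set against all tested genes, of which 19.8% rose and 24.7% fell with AraC in KO and 24.1% rose and 25.6% fell in WT, with medians of -0.025 and -0.013. When the values were rescaled to TPM the median of all genes became 0.10 in KO and 0.17 in WT, so small changes are relative to the deposited scale. Under TPM 30.6% of all tested genes rose and 13.2% fell in KO, and 41.4% rose and 12.4% fell in WT, against which the list counts under TPM are to be read. Unless a p is given, "rose" and "fell" here mean limma's Benjamini-Hochberg adjusted p under 0.05.

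**Figure D4:**
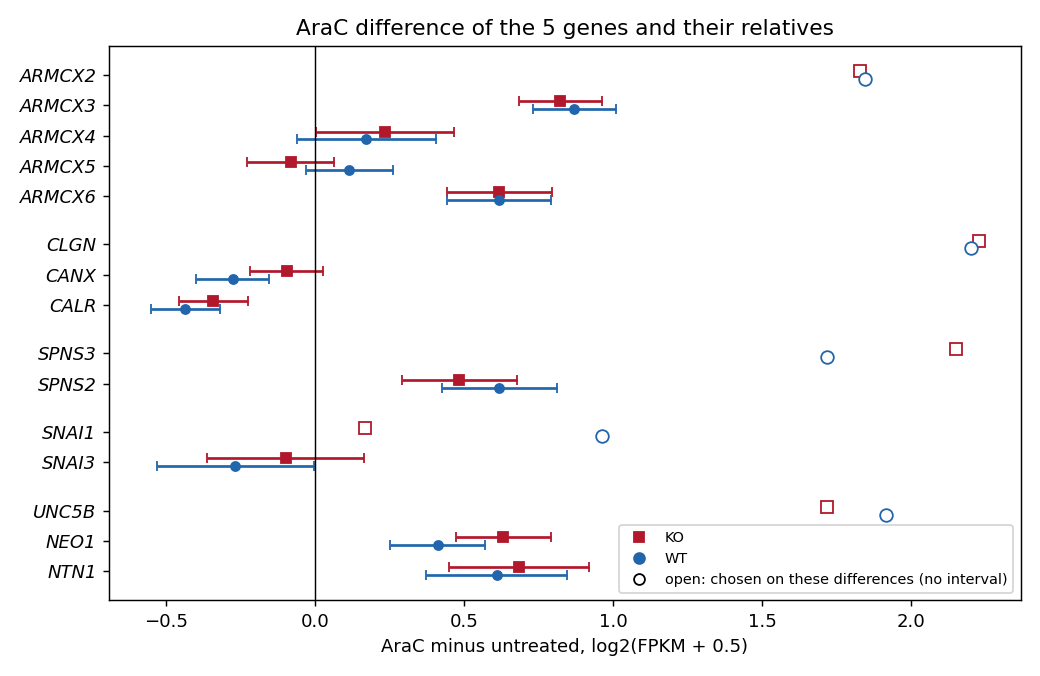
AraC minus untreated in log2(FPKM + 0.5) (x axis) for the 5 genes (open symbols, chosen on these values) and tested relatives (filled, with 95% intervals from limma); squares are KO and circles WT. ARMCX3, ARMCX6, SPNS2, NEO1 and NTN1 have intervals wholly above 0 in both genotypes, and CALR has intervals wholly below 0.

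In the list on UNC5 genes, netrins and genes associated with them, 5 of 17 genes were tested. In KO 2 rose and 1 fell, and in WT 2 rose and 1 fell, with medians of -0.10 and -0.030. NTN1, the ligand of UNC5B, averaged 2.17 FPKM in KO AraC and 1.15 in KO untreated libraries, and 3.84 in WT AraC and 2.34 in WT untreated libraries. It rose by 0.68 in KO and 0.61 in WT (limma adjusted p = 0.00038 and 0.00068), and its averaged KO minus WT difference was -0.75 (limma adjusted p = 1.4e-05), opposite in sign to that of UNC5B. NEO1, which encodes the netrin receptor neogenin, rose by 0.63 in KO and 0.41 in WT (limma adjusted p = 4.3e-05 and 0.00069). MAGED1, the third called gene, fell by 0.18 and 0.29, calls that both ended under TPM (limma adjusted p = 0.43 and 0.078); the KO call also ended without KO AraC replicate 2 (limma adjusted p = 0.060). The other genes with UNC5 names were not tested. UNC5A and UNC5C were listed at 0, and UNC5D and UNC5CL reached at most 0.021 and 0.706 FPKM. The co-receptor DCC reached at most 0.0044 FPKM, so UNC5B and NEO1 were the receptors of the list above the filter.

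The list on ARMCX genes and related armadillo proteins also holds RHOT1, RHOT2, TRAK1 and TRAK2, which are not of that family. Of its 13 genes 9 were tested. In KO 2 rose and 1 fell, and in WT 3 rose and 2 fell, with medians of -0.0011 and 0.12. The WT counts include TRAK2, which rose, and TRAK1, which fell, a call that ended under TPM (limma adjusted p = 0.99). Under TPM 4 rose and none fell in KO (limma-voom gave the same counts there), and 6 rose and 1 fell in WT. ARMCX3 averaged 16.9 FPKM in KO AraC and 9.35 in KO untreated libraries, and 18.1 in WT AraC and 9.72 in WT untreated libraries. It rose by 0.82 in KO and 0.87 in WT (limma adjusted p = 2.9e-06 and 1.5e-06), and ARMCX6 by 0.62 in both (limma adjusted p = 9.4e-05 and 7.8e-05). ARMCX4, at 0.24 and 0.17, and ARMCX5, at -0.082 and 0.12, did not pass in KO or WT, although under TPM ARMCX4 rose in both (limma adjusted p = 0.038 and 0.043) and ARMCX5 in WT (limma adjusted p = 0.0067), with 0.038 in KO. In KO ARMCX4 also passed without KO untreated replicate 1 or KO AraC replicate 3 (limma adjusted p = 0.049 and 0.045). ARMCX1 stayed at or below 0.655 FPKM and was not tested. ARMC10 fell by 0.24 in KO and 0.38 in WT, and the KO call ended under TPM (limma adjusted p = 0.23) and without KO untreated replicate 2, KO untreated replicate 3 or KO AraC replicate 2 (limma adjusted p = 0.070, 0.074 and 0.087).

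In the calnexin cycle, the pathway of the chaperones closest to CLGN, 14 of 17 genes were tested; 3 rose and 3 fell in KO, and 2 rose and 7 fell in WT, with medians of 0.0020 and -0.12. Under TPM these counts became 9 rose and 1 fell in KO, and 7 rose and 2 fell in WT. The WT count of genes that rose was 1 without WT untreated replicate 2, WT untreated replicate 3 or WT AraC replicate 1. CALR (calreticulin) averaged 246.4 FPKM in KO AraC and 311.8 in KO untreated libraries, and 244.2 in WT AraC and 330.3 in WT untreated libraries, and fell by 0.34 and 0.44 (limma adjusted p = 0.00035 and 5.0e-05). CANX, the calnexin gene, stood at -0.09 in KO (limma adjusted p = 0.19; 0.04 under TPM) and fell by 0.28 in WT (limma adjusted p = 0.0016), where the call ended under TPM (limma adjusted p = 0.076); in KO it passed without KO AraC replicate 3 (-0.16, limma adjusted p = 0.014). EDEM1, which helps to send misfolded glycoproteins to degradation, rose by 0.58 in KO and 0.78 in WT (limma adjusted p = 4.0e-06 and 4.2e-07). PDIA3, a disulfide isomerase, fell by 0.19 in KO and 0.28 in WT and MOGS, a glucosidase, by 0.26 and 0.36; under TPM both calls of MOGS ended (limma adjusted p = 0.19 and 0.073), as did that of PDIA3 in KO (limma adjusted p = 0.11).

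Of the list on spinster transporters and sphingosine-1-phosphate, 8 of 16 genes were tested; 3 rose and 1 fell in KO, and 5 rose and 1 fell in WT, with medians of 0.21 and 0.34. With the filter at 5 FPKM 1 rose in each genotype, and under TPM 6 rose in KO. SPNS2, the exporter, averaged 3.41 FPKM in KO AraC and 2.31 in KO untreated libraries, and 4.91 in WT AraC and 3.03 in WT untreated libraries. It rose by 0.48 in KO and 0.62 in WT (limma adjusted p = 0.0010 and 0.00016). SPHK1, a kinase that makes sphingosine-1-phosphate, rose by 0.56 and 0.78 (limma adjusted p = 9.1e-05 and 7.4e-06), and S1PR4, a receptor for it, fell by 0.50 and 0.43 (limma adjusted p = 0.00013 and 0.00031). SPNS1 reached at most 0.343 FPKM and was not tested, so SPNS3 and SPNS2 were the spinster genes above the filter.

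Around SNAI1, 14 of 24 genes of the list on Snail and the epithelial to mesenchymal transition were tested; in KO 4 fell and 0 rose, with 0 higher at an unadjusted p under 0.05 and 0 risen by limma-voom. In WT 1 rose and 9 fell, and the medians were -0.094 in KO and -0.25 in WT. With no filter 1 rose in KO and 2 in WT; the one added was FN1, the fibronectin gene, named after its values were seen. FN1 averaged 0.647 FPKM in KO AraC and 0.145 in KO untreated libraries, and 0.495 in WT AraC and 0.109 in WT untreated libraries, below the filter, and with no filter its limma adjusted p was 3.1e-05 in KO and 6.4e-05 in WT. Under TPM 2 fell in KO, and in WT 3 rose and 4 fell. TCF3, the E-box factor E2A, averaged 70.6 FPKM in KO AraC and 120.7 in KO untreated libraries, and 56.4 in WT AraC and 106.7 in WT untreated libraries. It fell by 0.77 in KO and 0.91 in WT (limma adjusted p = 9.2e-08 and 3.0e-08). HDAC2, a histone deacetylase, fell by 0.25 and 0.30 (limma adjusted p = 0.00080 and 0.00015), and TWIST1, another factor of this transition, by 0.24 and 0.28, calls that both ended under TPM (limma adjusted p = 0.051 and 0.10). FBXL14, a ubiquitin ligase subunit that targets Snail, fell by 0.26 in KO and 0.38 in WT (limma adjusted p = 0.012 and 0.0012), and the KO call ended under TPM (limma adjusted p = 0.12), with limma-voom (0.14) and without KO AraC replicate 1 (0.051). SNAI3 stood at -0.098 in KO and -0.27 in WT and did not pass (limma adjusted p = 0.54 and 0.086), with 0.0041 in KO under TPM, and SNAI2 reached at most 0.187 FPKM.

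The nearest tested gene on each side of the 5 was examined too. SPNS2 lies 10630 bases from SPNS3 and ARMCX3 27438 bases from ARMCX2, and both rose as given above. UBE2G1, on the other side of SPNS3, fell by 0.32 in both genotypes, and PCBD1, 323786 bases from UNC5B, rose by 0.51 in KO (limma adjusted p = 0.0069) and by 0.35 in WT (limma adjusted p = 0.039). The WT call of PCBD1 ended with no filter (limma adjusted p = 0.090), without WT untreated replicate 1 or 2 or WT AraC replicate 2 or 3 (0.065, 0.15, 0.071 and 0.15), and without KO untreated replicate 2 or 3 or KO AraC replicate 2 (0.051, 0.051 and 0.050). RNF114, next to SNAI1, rose in WT by 0.21, with 0.09 in KO (limma adjusted p = 0.0040 and 0.19). SCOC, next to CLGN, rose in KO by 0.27 (limma adjusted p = 0.015), with 0.17 in WT (limma adjusted p = 0.096). The KO call of SCOC ended without KO untreated replicate 1 or KO AraC replicate 3 (limma adjusted p = 0.058 and 0.055), and in WT it passed without WT AraC replicate 3 (limma adjusted p = 0.029). SLC29A3, TMEM189, ELMOD2 and AL672207.1 did not pass, with values from -0.68 to 0.12, except that ELMOD2 reached -0.20 in WT without WT AraC replicate 1 (limma adjusted p = 0.021); under TPM TMEM189, ELMOD2 and RNF114 rose in KO (limma adjusted p = 0.027, 0.035 and 0.0035) and SCOC in WT (0.0020). The sources used here do not say whether counting used strand, so reads of a gene and an antisense partner cannot be told apart: UNC5B-AS1 overlaps UNC5B and AC127521.1 overlaps SPNS3, with at most 9 and 16 reads in any library. The processed pseudogene SNAI1P1 on chromosome 2, a copy whose reads could be confused with those of SNAI1, had 0 reads in all libraries. How reads matching both copies were counted is not stated, so nothing is read from this.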

How the data were processed

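RNA from 12 SEM libraries was measured as FPKM in 1 table of 58735 genes. Processing used fastp, HISAT2 2.0.5 and featureCounts 1.5.0-p3 and the builds hg38 and GRCh38, per the submitters' processing notes, with no settings given. The FPKM values deposited by the authors already carry a scaling between libraries. To recover reads, FPKM times the deposited gene length was divided by the median of the library's smallest such products above 0, taken as 1 read. This gave whole reads for 100% of values above 0, within 0.001 reads.

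Genes with at least 1 FPKM in at least 3 libraries (13300) were tested on log2(FPKM + 0.5) with limma 3.58.1 in R 4.3.3: 1 mean per group, trended variance, 8 residual degrees of freedom, two-sided, Benjamini-Hochberg threshold 0.05. The AraC contrasts, their difference and the untreated KO against WT difference were not tested for the 5 genes, which were chosen on them. The members and lists were chosen with earlier results of these data known. Named are the 5 genes, their closest family, up to 4 called genes per list and genotype, neighbours and, from the 5 nearest profiles, those reported; some of these are not reported here. Two-sided intervals are 95%. Alternatives were the pseudocount, filter, TPM, limma-voom on plain read totals, a replicate block, leaving out each library and a shorter promoter window; those for the likeness of profiles were chosen after seeing the data.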

Additional observations from a re-analysis of the deposited data

How the results depend on the processing

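For the 5 genes, every alternative that gave a value kept the direction of the averaged and the untreated KO against WT differences, and the averaged calls changed only for SNAI1, without WT untreated replicate 1, as given above. With the filter at 5 FPKM ARMCX2 and SNAI1 were not tested. The counts of genes called stayed within 1.5 times for the AraC and KO against WT comparisons. That of the interaction, 358, became 554 under TPM, 809 with limma-voom and 238 with a replicate block, and 127 to 341 with 1 library left out. Same-numbered libraries of different groups correlated at -0.0498 to 0.115 in their deviations from group means, and 4 of 12 libraries correlated best with one of their own number, so the numbers were not taken as pairs; the replicate block changed no averaged call of the 5 genes. Under TPM, 69.9% of calls were higher with AraC in KO and 77% in WT, against 44.5% and 48.4% on the deposited scale, and 38.3% of calls averaged over treatment were higher in KO, against 52.4%. Uncalled differences that changed sign, all still uncalled, were in KO ARMCX5 (0.038 under TPM and 0.029 with limma-voom), CANX (0.039 and 0.029) and SLC29A3 (0.11 and 0.10), and in WT SLC29A3 (0.053 and 0.0051), ELMOD2 (0.058 and 0.033) and TMEM189 (0.16 and 0.12). SNAI3 in KO became 0.0041 under TPM. TPM divides each library by its FPKM sum, which was 254115 to 276509 in KO AraC and 285057 to 290297 in KO untreated libraries. In WT AraC libraries the sum was 246886 to 252226, and in WT untreated libraries 283822 to 286070. Beyond this and the moved median of all genes given above, the cause of these shifts was not tested. With 1 library left out, uncalled genes that changed sign ran from -0.072 to 0.40 for AL672207.1 and from -0.073 to 0.015 for TMEM189 in WT, and from -0.11 to 0.064 for SLC29A3 and from -0.17 to 0.020 for SNAI3 in KO. Without WT untreated replicate 1 or WT AraC replicate 1 AL672207.1 stood at -0.056 and -0.072, and SLC29A3 at 0.027, 0.018, 0.064 and 0.013 without KO untreated replicate 2 or 3 or KO AraC replicate 1 or 3. In the shorter promoter window CLGN kept 1 of 2 matches and ARMCX2 all 3. Low counts limit CLGN and ARMCX2 without AraC most.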
